A study of Mus musculus with 6 samples.

Results

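The miR-15/16 family of microRNAs, with miR-195 and miR-497, was followed in small-RNA sequencing of a cultured mouse epicardial cell line, labelled MCEC, the cell type that covers the surface of the heart. The members were the rows of the deposited count table named miR-15a, miR-15b, miR-16, miR-16-1, miR-16-2, miR-195a, miR-195b, miR-497a or miR-497b, with either arm or none given, and they came to 11 of 1028 names. miR-322-5p, an X-linked relative, was left out of the members and is given only for comparison. The control libraries (EV, n = 3) came from cells transduced with a lentivirus carrying an empty vector, and the knockout libraries (KO, n = 3) from cells transduced with a lentivirus for an Hdac3 sgRNA, for CRISPR/Cas9 knockout of this histone deacetylase. All 6 libraries are of the same cell line, and whether the replicates were grown as separate cultures is not stated in the labels, so the p-values measure the spread between these libraries, which may be technical. The labels name no clone. mRNA is not measured in these libraries, so loss of Hdac3 was not checked here.

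Mature microRNAs are cut from hairpins, whose left and right strands give the 5p and 3p arms. A mature microRNA finds its target mRNAs mainly through its seed, bases 2 to 8, and members with one seed can repress the same mRNAs. The miR-15/16 family is known for holding back the cell cycle and survival, with cyclin D1, Cdk6 and Bcl2 among its targets. The Mir15a and Mir16-1 pair is known for its loss in chronic lymphocytic leukaemia, and miR-195 for its part in the exit of heart muscle cells from the cell cycle after birth.

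RefSeq (GRCm38.p6) held a mature sequence for all 11 members, and 5 of the 11 carried the family seed. The 5 seed-bearing arms are printed because they define the family, with bases 2 to 8 in capitals and miR-322-5p and miR-503-5p beneath them for comparison.
miR-16-5p: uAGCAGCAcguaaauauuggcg
miR-15a-5p: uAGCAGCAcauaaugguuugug
miR-15b-5p: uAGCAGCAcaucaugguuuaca
miR-195a-5p: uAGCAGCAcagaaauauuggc
miR-497a-5p: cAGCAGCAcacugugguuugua
miR-322-5p: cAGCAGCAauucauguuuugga
miR-503-5p: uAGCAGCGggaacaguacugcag
The seed AGCAGCA stands in all 5 members and in miR-322-5p, while miR-503-5p has AGCAGCG. miR-16-5p and miR-195a-5p are the closest of the 5, with an edit distance of 3 bases, and miR-15a-5p and miR-15b-5p are next, with an edit distance of 4 and their first 11 bases in common.

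The 3p arms and miR-497b had other seeds, each different from the rest, and are printed because the name of the family does not apply to their seeds.
miR-16-1-3p: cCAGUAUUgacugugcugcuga
miR-16-2-3p: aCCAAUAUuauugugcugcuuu
miR-195a-3p: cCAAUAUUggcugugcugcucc
miR-15a-3p: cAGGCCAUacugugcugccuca
miR-15b-3p: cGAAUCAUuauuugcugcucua
miR-497b: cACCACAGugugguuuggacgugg
miR-497b is not a paralog of miR-497a-5p in sequence. It is read from the opposite strand of the Mir497 hairpin and overlaps 17 bases of the position of miR-497a-3p, an arm that is not analysed here. The 3p arms of Mir16-1 and Mir16-2 differ by an edit distance of 6 bases, so reads from these loci can be told apart by their 3p arms.

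The members come from 3 genomic clusters (GRCm38, annotation from GENCODE M21). Mir15a and Mir16-1 are read from the minus strand of chromosome 14, inside an intron of Dleu2, a long noncoding RNA, with miR-15a-5p at chr14:61632075-61632096 and the Mir16-1 hairpin at chr14:61631880-61631972. Mir15b (chr3:69009772-69009835) and Mir16-2 (chr3:69009902-69009996) lie 66 bases apart in an intron of Smc4, which encodes a condensin subunit, on its strand. None of the 8 Dleu2 transcripts and none of the 5 Smc4 transcripts over these sites has an exon there. Mir497 (chr11:70234717-70234800) and Mir195a (chr11:70235042-70235135) lie 241 bases apart on the plus strand of chromosome 11, outside any host gene of that annotation, with Mir497b (chr11:70234692-70234816) on the minus strand across Mir497. miR-16-5p is identical at Mir16-1 and Mir16-2, so its reads cannot be assigned to either locus.

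The family made up only a small part of the libraries. Its 11 names took 6021 to 7747 reads of library totals between 11824881 and 13412774, which is 0.0494% to 0.0605% of all reads. One read was worth 0.0637 to 0.0892 CPM, where CPM are counts per 1000000 after each total is multiplied by a TMM factor, a scaling that sets most microRNAs level between libraries. The TMM factor of EV 1 was 1.23, against 0.919 to 1.04 in the other 5 libraries. EV 3 and KO 2 stood apart in microRNAs of other cell types. The summed level of the 6 blood-cell markers in the table was 68.2 CPM in EV 3 and 78.1 CPM in KO 2, against at most 9.91 CPM in the other 4, and most of it was the red-cell microRNA miR-451a, at 54.7 CPM in EV 3 and 62.7 CPM in KO 2. miR-486a-5p gave most of the rest, at 13.3 CPM in EV 3 and 15.1 CPM in KO 2, against 5.68 to 9.25 CPM in the other libraries. The other blood-cell markers did not follow these. miR-144-3p, miR-142a-3p and miR-223-3p were at 0 in EV 3 and KO 2, and miR-142a-5p was at most 0.326 CPM in any library. The 3 neural markers summed to 53.1 CPM in EV 3 and 58.6 CPM in KO 2, against 11.4 to 33.4 CPM elsewhere. Nearly all of this was miR-9-5p, at 51.4 CPM in EV 3 and 57.1 CPM in KO 2. miR-9-3p and miR-124-3p were also highest in these libraries, but reached at most 0.982 and 0.718 CPM. The 5 epithelial markers lay at 41.4 to 50.03 CPM in EV and 25.3 to 27.3 CPM in KO. Muscle markers lay at 26.2 to 27.2 CPM in EV and 20.9 to 24.9 CPM in KO, and endothelial markers at 36.6 to 42.1 and 34.7 to 35.4 CPM. miR-206-3p carried the muscle sum (25.4 to 25.9 CPM in EV, 18.8 to 22.5 in KO), while miR-1a-3p lay the other way, at 0.828 to 1.25 CPM in EV and 1.75 to 2.35 in KO. The endothelial sum was mostly miR-126a-3p, at 33.5 to 39.4 CPM in EV and 31.7 to 31.9 CPM in KO. miR-126a-5p did not follow it, at 2.55 to 3.10 CPM in EV and 2.87 to 3.57 CPM in KO. The 5 mesenchymal markers, which include the dominant miR-21a-5p, summed to 589456 CPM in EV 1 and to between 730719 and 837452 CPM in the other libraries. Most of this was miR-21a-5p, at 513964 CPM in EV 1 and 654025 to 763066 CPM in the others. miR-145a-5p was also lowest in EV 1, at 279 CPM against 295 to 399 CPM. miR-214-3p was highest there, at 538 CPM against 386 to 450 CPM. miR-143-3p and miR-199a-3p in EV 1 lay within the range of the other libraries. No microRNA that defines epicardial cells was listed, so that label was not checked. No marker in the table was at 0 in every library. The part of these markers in the values below was not tested, apart from the values given without EV 3 and KO 2. Whether reads were shared among near-identical names was not tested either, and for reads that match several microRNAs the counting rule is not given in the sources read here.

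The most abundant member was miR-16-5p, followed by miR-16-1-3p, miR-15b-5p, miR-15b-3p and miR-15a-5p. All 11 names are 21 to 24 bases long and each read covers 1 of them, so levels need no length term, but adaptor ligation favours some sequences, and that bias and a true level cannot be told apart between members. miR-16-5p held 57.8% of the family's mean CPM, miR-16-1-3p 24.0%, miR-15b-5p 9.56%, miR-15b-3p 5.49% and miR-15a-5p 1.39%. The ranges of these 5 over the 6 libraries did not overlap with their neighbours in the order, from 275 to 376 CPM for miR-16-5p down to 6.05 to 9.83 CPM for miR-15a-5p. Below them, miR-195a-3p (2.69 to 4.27 CPM), miR-16-2-3p (1.15 to 3.12 CPM), miR-195a-5p (0.816 to 3.19 CPM) and miR-497a-5p (1.08 to 2.61 CPM) overlapped each with the next. miR-15a-3p and miR-497b, the lowest, had at most 9 reads in any library.

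**Figure D1:**
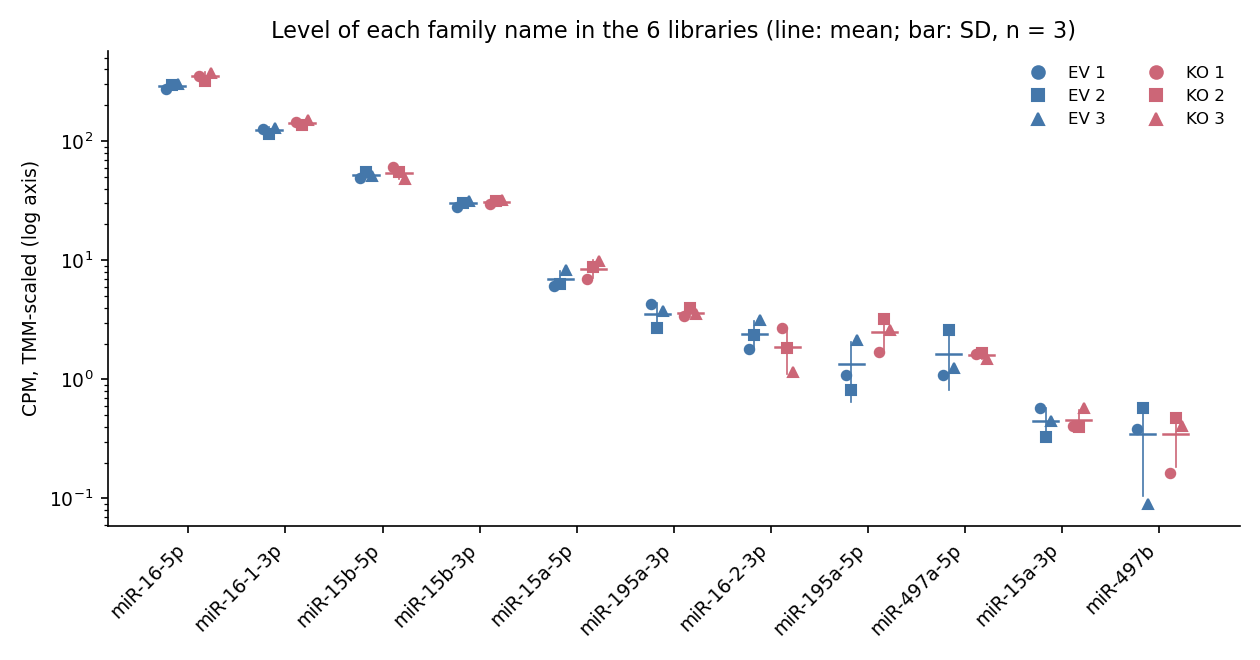
Level of the 11 family names (x axis, ordered by mean) in CPM on a log axis, with 1 point per library, blue for EV and red for KO, a line at the mean and a bar for the SD (n = 3). The order of the 5 most abundant names is the same in all libraries, and the EV and KO points are separate only for miR-16-5p and miR-16-1-3p.

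KO was compared with EV to find which members differ when Hdac3 is targeted. None of the 9 members that passed the filter on low counts was called by edgeR (quasi-likelihood F test, two-sided, Benjamini-Hochberg adjusted p under 0.05 over 460 microRNAs), against 7.61% of all tested microRNAs. The members called higher and lower were 0 and 0, beside 5.00% and 2.61% of all tested. At an unadjusted p under 0.05 there were 3 of the 9, miR-16-5p, miR-16-1-3p and miR-195a-5p, all above 0, beside 23.0% of all tested. DESeq2 called 1 (miR-16-5p), beside 10.4% of all tested, and limma-voom 0, beside 8.26%. For miR-16-2-3p, miR-195a-3p, miR-195a-5p and miR-497a-5p DESeq2 gave no adjusted p, so it could not call them. Of the 9 log2 changes 7 were above 0 and 2 below, with a median of 0.06, and over all 460 tested 222 were above 0, with a median of -0.01. With library size alone, 4 of the 9 were above 0, with a median of -0.09 beside -0.16 over all tested. The 5 seed-bearing arms had a median of 0.27 and the 4 tested 3p arms of 0.03. miR-15a-3p and miR-497b did not pass the filter and have no test. In whole cultures, fewer cells that make a microRNA and less of it per cell cannot be told apart.

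miR-16-5p, the main carrier of the seed, had levels of 275, 295 and 305 CPM in EV replicates 1, 2 and 3, and of 356, 323 and 376 CPM in KO replicates 1, 2 and 3. All 3 KO libraries lay above all 3 EV libraries on this scale, with KO 2 and EV 3 closest. The means were 292 ± 15.2 CPM in EV and 352 ± 26.8 CPM in KO (SD, n = 3 each), a 1.21-fold difference (95% interval 1.06 to 1.37; log2 0.27, SE 0.08) that was not called (edgeR adjusted p = 0.0731). Of the 9 tested members, 2 had groups that did not overlap, miR-16-5p and miR-16-1-3p, where 29.1% of all tested microRNAs did. The authors' deposited table, which lists 78 microRNAs, holds miR-16-5p as its only member of the family, with a log2 change of 0.25 and an adjusted p of 0.0117. DESeq2, refitted here, gave 0.26 (SE 0.09, DESeq2 adjusted p = 0.0293). The call thus differed between tools, with log2 changes from 0.25 to 0.27.

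The scaling decided whether the miR-16-5p groups overlapped. Scaled to the library total alone, its levels were 337, 305 and 280.3 counts per 1000000 in EV replicates 1, 2 and 3, and 327, 318 and 355 in KO replicates 1, 2 and 3. On that scale EV 1 lay above KO 1 and KO 2. The log2 change was then 0.12 (SE 0.11, edgeR adjusted p = 0.565), while the median over all tested microRNAs moved from -0.01 to -0.16. miR-16-5p lay 0.28 above the median in both scalings. A change of scaling moves all log2 changes by nearly the same amount, so this distance does not test the difference. Without EV 3 and KO 2, the libraries with high miR-451a, the difference was not smaller, at 0.37 (SE 0.11), and it was called (edgeR adjusted p = 0.0195), as were 18.7% of all microRNAs in that fit. Without EV 3 alone it was called at 0.30 (SE 0.09, edgeR adjusted p = 0.0489), where 12.3% of all were. With the 10 CPM filter it was called at 0.28 (SE 0.08, edgeR adjusted p = 0.0435), where 16.2% of all were.

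**Figure D2:**
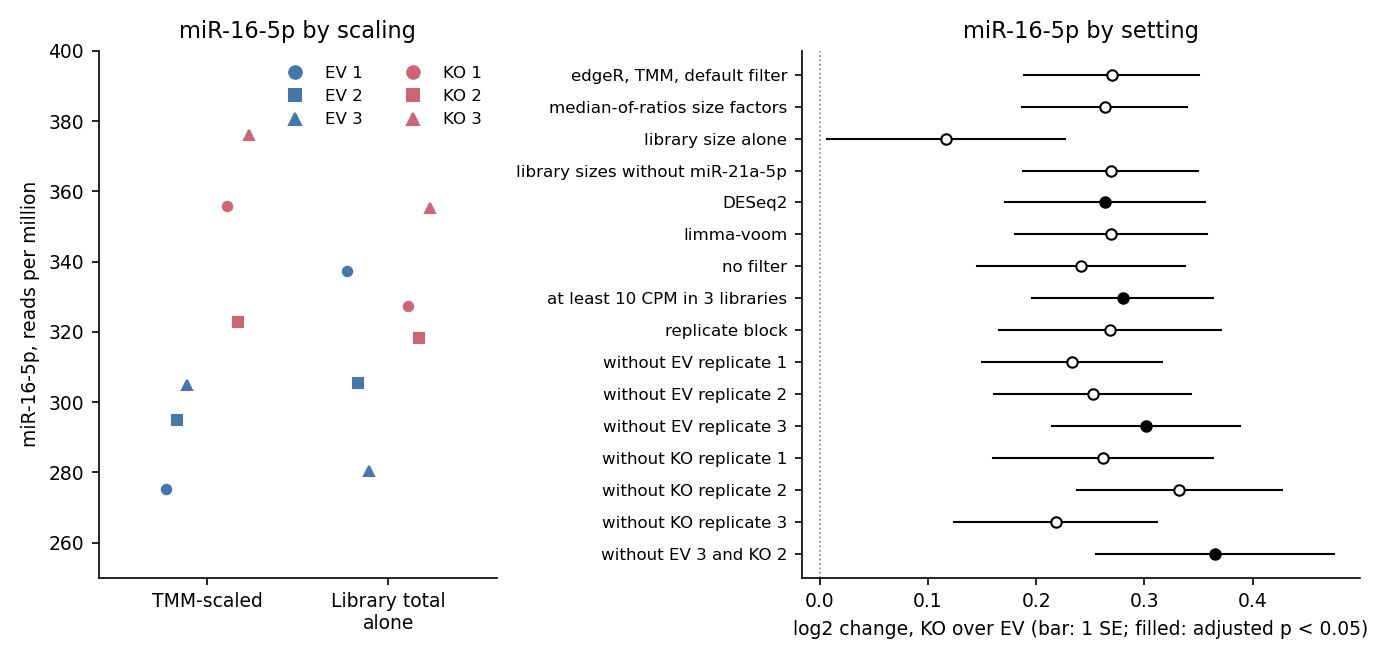
Left, miR-16-5p in counts per 1000000 (on a y axis that does not start at 0) in the 6 libraries under TMM scaling and under the library total alone. Right, its log2 change of KO over EV with 1 SE under each setting, filled where the adjusted p was under 0.05. All 16 values lie above 0, and 4 are filled.

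miR-16-1-3p, which pairs with miR-16-5p in the Mir16-1 hairpin of Dleu2, had a log2 change of similar size. Its levels were 126, 114 and 130.2 CPM in EV replicates 1, 2 and 3, and 144, 136 and 150.02 CPM in KO replicates 1, 2 and 3. The groups did not overlap, with means of 123 ± 8.25 and 143 ± 7.25 CPM (SD, n = 3 each), and the log2 change of 0.22 (SE 0.08) was not called (edgeR adjusted p = 0.171). Scaled to the library total alone the groups overlapped, since EV 1 was then the highest of the 6 at 154 counts per 1000000, and the log2 change was 0.06 (SE 0.13). With TMM scaling and without EV 2, the log2 change was 0.14 (SE 0.09).

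miR-15a-5p, the other seed carrier of the Dleu2 cluster, stood at 6.05, 6.37 and 8.30 CPM in EV and at 6.97, 8.77 and 9.83 CPM in KO, in the order of the replicate numbers. The groups overlapped, EV 3 lying above KO 1. The log2 change was 0.31 (SE 0.19, 95% interval -0.11 to 0.73), from 78 to 120 reads a library, and was not called (edgeR adjusted p = 0.344). It was 0.17 (SE 0.20) with library size alone and 0.19 (SE 0.20) without KO 3. Its passenger arm miR-15a-3p had 9, 4 and 5 reads in EV and 5, 5 and 7 reads in KO, too few to test. Summed over miR-15a-5p, miR-15a-3p and miR-16-1-3p, the names that only this cluster can give, the level was 131 ± 9.13 CPM in EV and 152 ± 7.86 CPM in KO (SD, n = 3 each). Most of this sum was miR-16-1-3p, at means of 123 CPM in EV and 143 CPM in KO, so it largely repeats that arm. Scaled to the library total alone, the groups of miR-16-1-3p overlapped.

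The abundant arms of the Smc4 cluster had log2 changes close to 0. miR-15b-5p levels were 49.6, 55.3 and 51.3 CPM in EV and 60.6, 54.9 and 47.7 CPM in KO. The first KO library was the highest and the third the lowest of all 6 libraries, so the EV range lay inside the KO range. The log2 change was 0.06 (SE 0.12, 95% interval -0.21 to 0.34, edgeR adjusted p = 0.788). miR-15b-3p, from the other strand of the hairpin, lay between 27.8 and 31.9 CPM in all libraries, with a log2 change of 0.05 (SE 0.12, 95% interval -0.23 to 0.33). miR-16-2-3p had 28, 29 and 35 reads in EV and 33, 23 and 14 reads in KO. The low value of KO 3 has an exact Poisson 95% interval of 7.65 to 23.5 reads, for counting error only, and the log2 change of -0.34 (SE 0.34) was not called (edgeR adjusted p = 0.572). It was -0.09 (SE 0.32) without KO 3, -0.12 (SE 0.35) without EV 3, -0.53 (SE 0.36) without EV 1 and -0.68 (SE 0.36) without KO 1. The 3 names of this cluster summed to 84.5 ± 4.71 CPM in EV and 87.3 ± 6.13 CPM in KO (SD, n = 3 each). Both cluster sums leave out miR-16-5p, and neither was tested.

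In the chromosome 11 cluster, miR-195a-5p had the largest log2 change of the 9 tested members and one of the lowest levels. It had 17, 10 and 24 reads in EV 1, EV 2 and EV 3, and 21, 40 and 32 reads in KO 1, KO 2 and KO 3. These are 1.08, 0.816 and 2.14 CPM in EV and 1.70, 3.19 and 2.62 CPM in KO, and EV 3 lay above KO 1. The exact Poisson 95% intervals run from 4.80 to 18.4 reads in EV 2 and from 28.6 to 54.5 reads in KO 2. The log2 change was 0.92 (SE 0.38, 95% interval 0.07 to 1.77) and was not called (edgeR adjusted p = 0.191). The highest EV library and the highest KO library were EV 3 and KO 2, the libraries with high miR-451a. Without both, the log2 change was 1.17 (SE 0.43, edgeR adjusted p = 0.0526), and without EV 3 alone it was 1.37 (SE 0.36) and called (edgeR adjusted p = 0.0320). miR-195a-5p had 0.277% to 0.988% as many reads as the closely related miR-16-5p, on 10 to 40 reads a library. Whether reads were shared between these names was not tested.

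The other names of that cluster were not called or not tested. miR-195a-3p had 67, 33 and 42 reads in EV and 42, 50 and 43 reads in KO, with a log2 change of 0.02 (SE 0.20). miR-497a-5p had 17, 32 and 14 reads in EV and 20, 21 and 18 reads in KO, with a log2 change of -0.03 (SE 0.37, 95% interval -0.86 to 0.79). EV 2 was highest for miR-497a-5p and lowest for miR-195a-5p. miR-497b, from the opposite strand, had 1 to 7 reads a library. The cluster's 3 names on the plus strand summed to 6.56 ± 0.521 CPM in EV and 7.73 ± 1.07 CPM in KO (SD, n = 3 each).

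**Figure D3:**
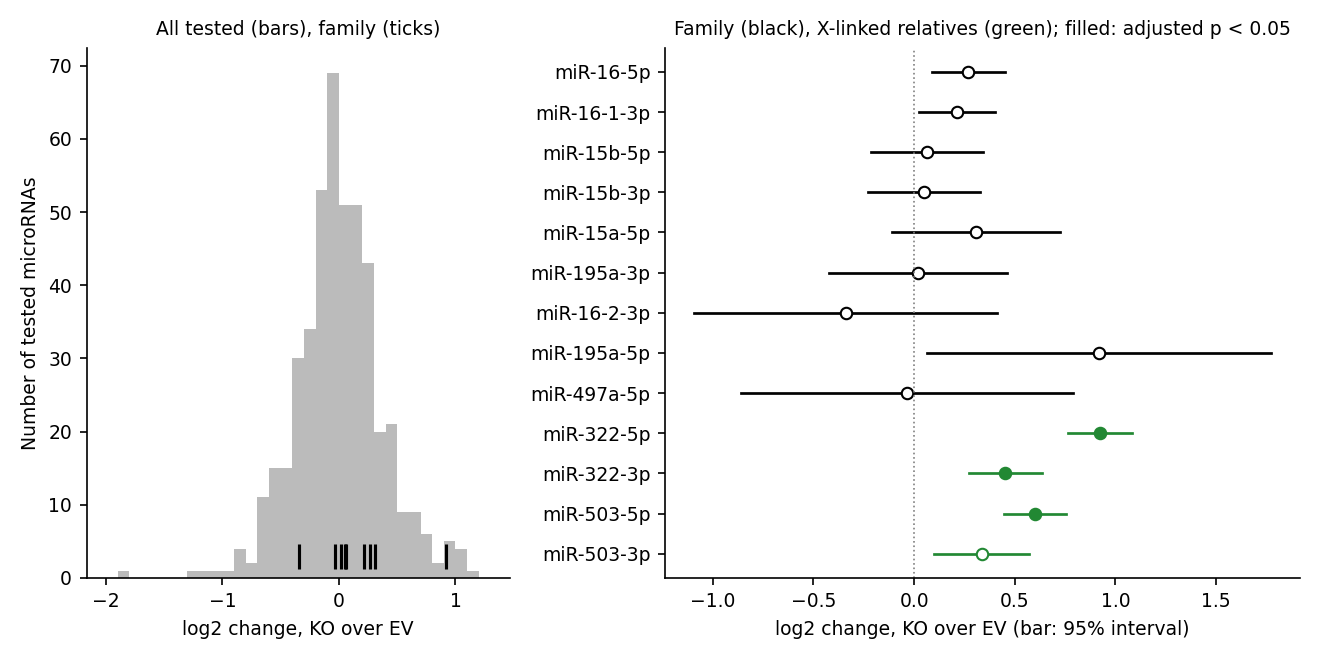
Left, the log2 changes of KO over EV for all 460 tested microRNAs (bars, number of microRNAs) with the 9 tested family members as ticks. Right, each member (black) and the 4 X-linked relatives (green) with the 95% interval, filled where the adjusted p was under 0.05. No family member is filled, and 3 of the 4 relatives are.

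The arms of a hairpin were compared within each library, as the log2 ratio of 5p to 3p reads, which needs no scaling between libraries. The test was limma over the 159 hairpin names with both arms tested. It called 0 of the 4 family hairpins and 0% of all of them, while 9 of the 159 had an unadjusted p under 0.05 (limma), 1 of them in the family. The EV and KO ratios were separate for 0 of the 4, beside 13.8% of the 159. miR-15b-5p had 1.74 times the reads of miR-15b-3p (range over libraries 1.49 to 2.03), and the log2 ratio changed by 0.01 (SE 0.16) between EV and KO. miR-16-5p had 2.41 times the reads of miR-16-1-3p (2.19 to 2.58), with a log2 change of 0.05 (SE 0.13). Since miR-16-5p pools reads of Mir16-1 and Mir16-2, its ratios to miR-16-1-3p and miR-16-2-3p are not strand ratios of a single hairpin. The log2 ratios of miR-16-5p to miR-16-1-3p were 1.13, 1.37 and 1.23 in EV and 1.31, 1.25 and 1.32 in KO.

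The miR-195a hairpin had more 3p than 5p reads in 6 of 6 libraries, by 1.25 to 3.94 times, and it is the 5p arm that carries the family seed. Over all 159 names the 3p arm was the more abundant in 64. The log2 ratio of 5p to 3p of miR-195a was -1.95, -1.67 and -0.79 in EV and -0.98, -0.32 and -0.42 in KO, EV 3 lying among the KO values. Its change of 0.90 (SE 0.33) was the seventh smallest p of the 159 and was not called (limma, unadjusted p = 0.0311, adjusted p = 0.650). The change for miR-16-5p over miR-16-2-3p was 0.67 (SE 0.34, limma adjusted p = 0.653), and it was 0.31 (SE 0.25) without KO 3 and 0.94 (SE 0.34) without KO 1.

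The 3p arms of the miR-16 loci were very unequal in level. The Mir16-1 and Mir16-2 hairpins are printed because both yield the same miR-16-5p, with the mature arms in capitals.
Mir16-1: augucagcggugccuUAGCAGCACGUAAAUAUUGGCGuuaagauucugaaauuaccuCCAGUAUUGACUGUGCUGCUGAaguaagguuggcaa
Mir16-2: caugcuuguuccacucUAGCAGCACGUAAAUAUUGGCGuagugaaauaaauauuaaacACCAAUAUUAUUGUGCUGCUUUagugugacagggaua
miR-16-1-3p had 63.5 times the reads of miR-16-2-3p (range over libraries 41.1 to 126), whereas miR-15a-5p, beside Mir16-1, had only 0.144 times the reads of miR-15b-5p, beside Mir16-2 (0.116 to 0.207). The clusters thus ranked in opposite order by their miR-15 5p arms and by their miR-16 3p arms, in all 6 libraries. Inside the clusters, miR-15a-5p had 0.0575 times the reads of miR-16-1-3p (0.0484 to 0.0658), and miR-15b-5p had 25.4 times the reads of miR-16-2-3p (16.2 to 40.2). Differences in ligation, in arm stability and in locus output cannot be told apart in these ratios.

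These ratios between hairpins and clusters were then compared between KO and EV by a two-sided exact permutation test over the 7 ratios that were computed. With 3 against 3 libraries the smallest p is 0.10, so no ratio could pass. The groups overlapped in all 7. The log2 ratio of miR-16-1-3p to miR-16-2-3p was 5.68 ± 0.389 in EV and 6.30 ± 0.634 in KO (SD, n = 3 each; exact p = 0.20, adjusted 0.35). The log2 ratio of miR-15a-5p to miR-15b-5p was -2.92 ± 0.261 in EV and -2.68 ± 0.419 in KO (exact p = 0.70, adjusted 0.70). For miR-15a-5p over miR-16-1-3p, neighbours in the Dleu2 intron, the change was 0.09 on the log2 scale (exact p = 0.50), and for miR-15b-5p over miR-16-2-3p in the Smc4 intron it was 0.46 (exact p = 0.30). Ratios with miR-195a-5p moved the most, by 0.89 over miR-497a-5p, by -0.89 for miR-15b-5p over it and by -0.65 for miR-15a-5p over it (exact p = 0.20 each, adjusted 0.35). With 1 library left out, the change of miR-16-1-3p over miR-16-2-3p ran from 0.27 without KO 3 to 0.90 without KO 1, and that of miR-195a-5p over miR-497a-5p from 0.22 without EV 2 to 1.41 without EV 3.

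**Figure D4:**
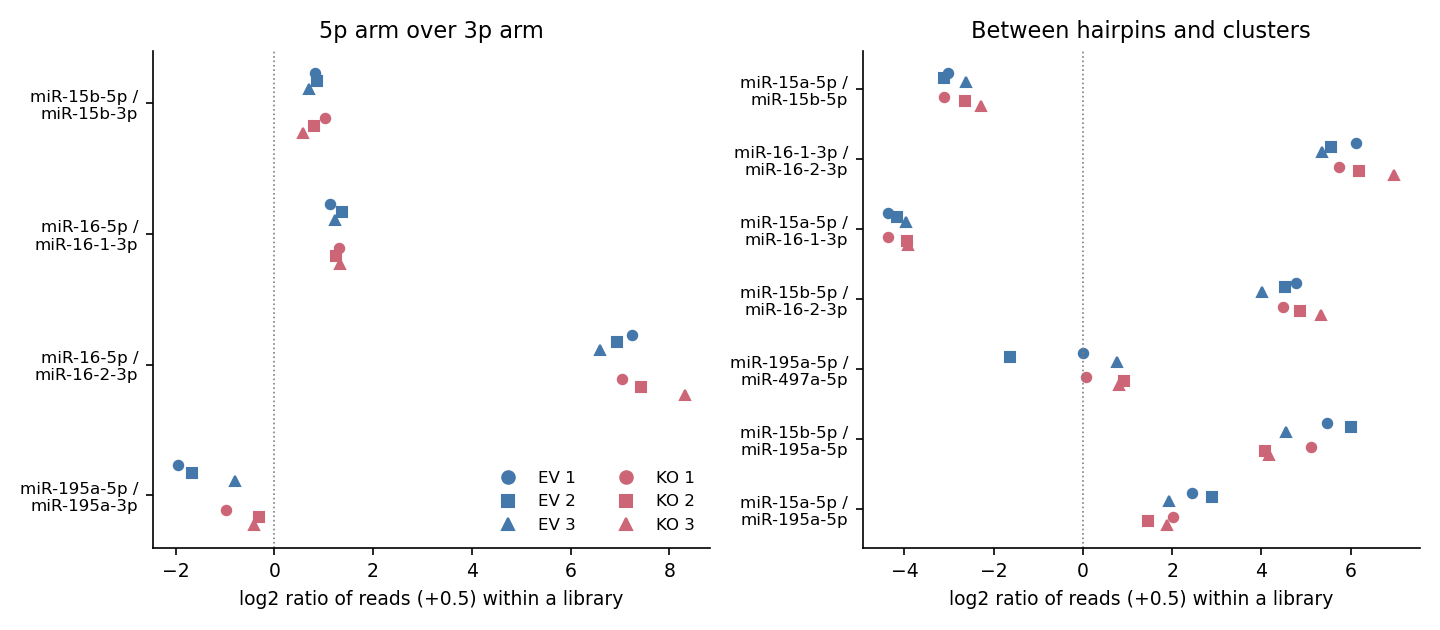
Log2 ratios of reads within a library (x axis), for the 4 family hairpins with both arms tested (left) and the 7 ratios between hairpins and clusters (right), with 1 point per library. The EV and KO points overlap in every row. The rows for miR-16-1-3p over miR-16-2-3p and miR-15a-5p over miR-15b-5p lie on opposite sides of 0.

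Among relatives outside the family, most arms of the X-linked miR-322 and miR-503 hairpins were called. Of the 8 relatives listed, 4 were in the table and tested, and miR-322-5p, miR-322-3p and miR-503-5p rose in KO. edgeR called these 3 of the 4 higher and 0 lower, beside 5.00% and 2.61% of all tested. Their log2 changes were 0.92 (SE 0.07), 0.45 (SE 0.08) and 0.60 (SE 0.07). With library size alone, only 1 of all 460 microRNAs was called higher, so not all 3 calls held in that scaling. miR-503-3p, at 0.34 on the log2 scale (SE 0.10), was not called (edgeR adjusted p = 0.0834). The other 4, miR-1907, miR-6342, miR-6353 and miR-6419, were not analysed here, nor was the member name miR-195b. These relatives were listed with their results known.

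Read as a pool of 1 seed, AGCAGCA, the family arms and miR-322-5p together stood at 824, 882 and 921 CPM in EV and at 1454, 1331 and 1437 CPM in KO. The pool was higher in every KO library than in every EV library on this TMM scale. miR-322-5p was 59.6% ± 0.434 of the pool in EV and 70.3% ± 0.614 in KO (SD, n = 3 each), and miR-16-5p 33.3% ± 0.182 and 25.0% ± 1.04. The 5 family arms alone summed to 354 ± 18.3 CPM in EV and 419 ± 24.2 CPM in KO. Among these 5 arms miR-16-5p took 82.5% ± 0.499 in EV and 83.9% ± 1.77 in KO. These shares are descriptions, since miR-322-5p was set beside the family with its rise known.

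**Figure D5:**
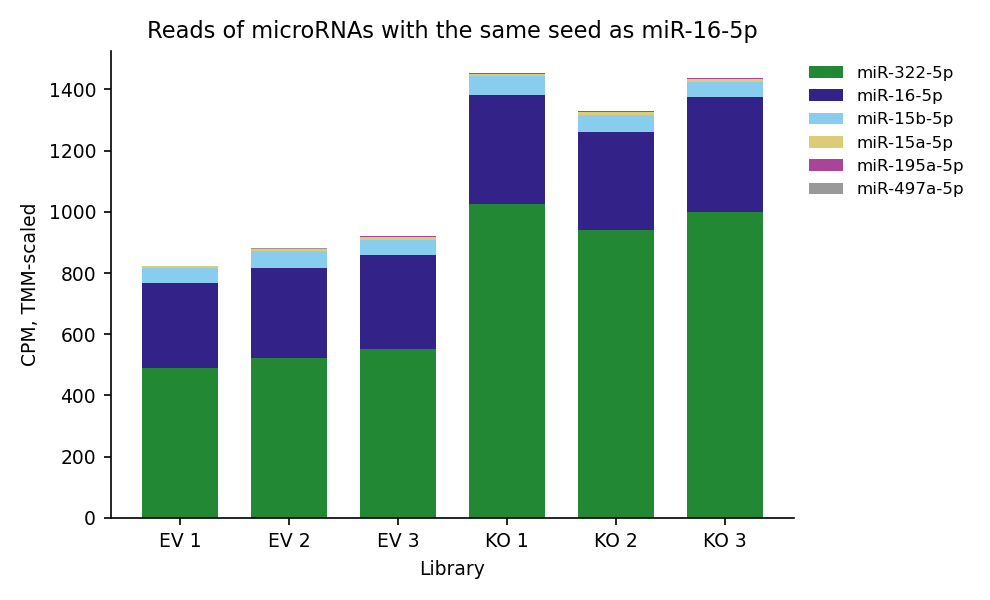
Stacked CPM (y axis) of the 6 microRNAs in the table that carry the seed of miR-16-5p, 1 bar per library. Bars reach 824 to 921 CPM in EV and 1331 to 1454 CPM in KO, and miR-322-5p is the largest part of each.

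Across the 6 libraries the profile of miR-16-5p was most like those of miR-31-3p, miR-194-5p and miR-450b-5p, with Pearson correlations of log2 CPM of 0.94, 0.94 and 0.92, where the median over the 245 microRNAs considered was 0.08. They were picked as the highest of the 245 over only 6 libraries, so the median is no measure of how unusual they are. The 6 points share the group difference and the scaling of each library, and the correlations are descriptions. None of these 3 was called, at log2 changes of 0.20 (SE 0.13), 0.27 (SE 0.13) and 0.31 (SE 0.11) by edgeR. Within the family the correlation with miR-16-5p was 0.87 for miR-16-1-3p, 0.69 for miR-15a-5p, 0.62 for miR-195a-5p and 0.56 for miR-15b-3p. It was 0.12 for miR-15b-5p, 0.08 for miR-497a-5p, -0.14 for miR-195a-3p and -0.35 for miR-16-2-3p. The tested names of the Dleu2 cluster had the highest of these correlations, with miR-195a-5p of chromosome 11 close to miR-15a-5p. In the Smc4 cluster, miR-15b-5p lay below miR-15b-3p of the same hairpin.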

How the data were processed

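Per the labels' protocols, total RNA was extracted with Trizol and made into small-RNA libraries with a NEBNext kit. Per the submitters' processing notes, Bowtie, mm10 and DESeq 1.8.3 were used. The authors deposited whole-number read counts per mature microRNA, TPM values (the counts scaled to a library total of 1000000, not tested), and a table of mean normalized counts (a signal per group), log2 fold changes, p-values and adjusted p-values. From the counts, edgeR 4.0.16 in R 4.3.3 fitted all 460 microRNAs that passed filterByExpr (minimum count 10, minimum total 15), with TMM factors. limma 3.58.1 fitted arm ratios with a pseudocount of 0.5. DESeq2 1.42.0 was an alternative. The fits were tested on simulated data. No replicate pair agreed within counting noise (lowest chi-square 9040 on 459 degrees of freedom). All family rows are named. Relatives were those with the seed of miR-16-5p plus the miR-322 and miR-503 arms and miR-1907. Likeness to the most abundant member was taken over tested microRNAs of at least 10 CPM. The members, lists and alternatives were chosen with earlier results of these data known.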

Additional observations from a re-analysis of the deposited data

How the results depend on the processing

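The count of family members called by edgeR was 0, and 1 (miR-16-5p) with DESeq2, with the stricter filter (10 CPM in 3 libraries, 4 members tested), and without EV 3 and KO 2. With 1 library left out it ran from 0 to 2, the 2 being miR-16-5p and miR-195a-5p without EV 3. The number of family hairpins with a called arm ratio was 0 in every setting run. The 7 locus ratios were rerun only with libraries left out and with a pseudocount of 1. Leaving out 1 of 3 libraries cannot shift a change by a whole SD of its group, so shifts are not set against the SD. Over these 1-library omissions, the change of miR-195a-5p over miR-497a-5p ran from 0.22 to 1.41. That of miR-15a-5p over miR-15b-5p ran from 0.04 to 0.46, and that of miR-15a-5p over miR-16-1-3p from -0.02 to 0.23. Sign changes were seen only for members and ratios near 0. With library size alone, miR-15b-3p stood at -0.10, miR-15b-5p at -0.0924 and miR-195a-3p at -0.15. miR-497a-5p stood at 0.0900 with limma-voom and 0.0103 with the replicate block, and miR-195a-3p at -0.0135 without the filter and -0.0219 without EV 3 and KO 2. The 5p to 3p ratio of miR-15b stood at -0.0415 without EV 3 and KO 2. With 1 library left out, the log2 changes ran from -0.0194 to 0.15 for miR-15b-5p, -0.18 to 0.18 for miR-195a-3p, -0.29 to 0.42 for miR-497a-5p, -0.10 to 0.12 for the miR-15b ratio and -0.00428 to 0.11 for the miR-16-1 ratio. The cause of these changes was not tested. With the replicate block, 0 members were called. Same-numbered deviations correlated at 0.26, -0.11 and -0.25 for replicates 1, 2 and 3, so no pairing by number was seen. With 3 libraries a group, these correlations cannot decide whether the libraries were handled in pairs. For names under 50 reads a library, counting error limits what difference could be seen.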
